A study of Arabidopsis thaliana with 6 samples.

Results

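The genes compared here are those of the plastid genome, measured in Arabidopsis root protoplasts on 6 ATH1 arrays. The rule used genome position and no measured value: a probe set qualified when the array annotation named 1 gene and that gene lay on the plastid genome. This gave 69 plastid genes, each with 1 probe set, of 13286 genes with a named probe set on the array. In each of 3 samples protoplasts received 10 µM dexamethasone (DEX), and in each of 3 other samples they received none. All 6 samples carried the plasmid pBeaconRFP_GR-HRS1, which makes the transcription factor HRS1 (AtNIGT1) fused to the glucocorticoid receptor from the CaMV35S promoter, and all were kept in nitrate with 35 µM cycloheximide (CHX). DEX, a synthetic glucocorticoid, lets the fusion protein into the nucleus, and CHX blocks translation on cytosolic ribosomes. Cells that had taken up the plasmid were sorted by red fluorescent protein. There were no DEX-treated protoplasts without HRS1 among the arrays analysed here, so an effect of DEX itself cannot be told apart from one of HRS1.

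Plastids keep a small genome of their own, descended from that of a cyanobacterium. It encodes core subunits of both photosystems, the cytochrome b6f complex, ATP synthase, an NADH dehydrogenase-like (NDH) complex and the large subunit of Rubisco, together with parts of the machinery that transcribes and translates them. A bacterial-type RNA polymerase whose core subunits are themselves plastid-encoded reads most photosynthesis genes, with sigma factors imported from the cytosol, while phage-type polymerases encoded in the nucleus read the rpoB unit and accD. Many plastid genes are transcribed together as polycistronic units that are then cut, spliced and trimmed. Roots hold non-green plastids in which photosynthesis genes are known to be weakly expressed. HRS1 is a nuclear transcription factor, and the plastid genome lies outside the nucleus.

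The label protocol names a 3′ IVT kit, which primes from poly(A) tails. Mature plastid mRNAs, as is well known, mostly carry no stable poly(A) tail, and how far the kit samples them was not tested. Values are log2 intensities of arrays brought to 1 median. Intensities of different probe sets are not set against each other as amounts of RNA, because probes differ in how strongly they bind. Background means the 95th percentile, on that array, of the 27 probe sets that detect added Bacillus transcripts. It was 5.58, 5.11 and 5.76 for replicates 1, 2 and 3 with DEX and 6.27, 6.62 and 5.39 without. In these bulk samples, fewer plastid-rich cells, fewer plastids per cell and less RNA per plastid cannot be told apart. Whether the replicates were separate protoplast preparations is not stated in the labels, and the p-values cover only the variation among these 6 samples, part of which may be technical.

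One of the arrays, that of −DEX replicate 1, differed from the other 5. Its mean Spearman correlation with them was 0.708, against 0.777 to 0.822 for the others, and its ratio of 3′ to 5′ ubiquitin signal was 11.1, against 5.21 to 8.90. Results are therefore given with and without it. The transcript of HRS1 itself is not named in the annotation used here, so its level is not reported.

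Most plastid probe sets gave signal above background in these root cells. Of the 69 genes, 44 (63.8%) lay above background on all 6 arrays, against 33.4% of all 22746 tested probe sets. On single arrays 64, 65 and 65 of the 69 (92.8%, 94.2% and 94.2%) were above background with DEX. Without it 53, 54 and 66 were (76.8%, 78.3% and 95.7%). Of all tested probe sets, 59.1%, 64.6% and 57.2% were above background with DEX, and 51.4%, 46.5% and 61.8% without. The arrays of −DEX replicates 2 and 1 thus had the smallest shares over all probe sets too. They also had the highest backgrounds, 6.62 and 6.27, while all arrays were brought to 1 median (6.36). The share above background therefore depends on each array's cutoff. Being above background was a stricter demand on these arrays than on the others. Only psbT, of photosystem II, and ndhF, of the NDH complex, lay below background on every array. Within classes, 6 of 7 rpl genes, 5 of 6 pet genes, 5 of 6 atp genes, 4 of 5 psa genes and 10 of 15 psb genes were above background on all 6 arrays. The counts were 4 of 10 for ndh, 3 of 8 for rps, 1 of 2 for ycf, 1 of 4 for rpo and 5 of 6 for the genes of no class.

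Signal varied widely within each class. The class medians of the mean log2 intensity were, with DEX and without, 11.23 and 9.48 for ycf, 10.66 and 9.60 for psa, 10.36 and 10.09 for atp, 10.20 and 9.82 for rpl, and 11.06 and 10.29 for the genes of no class. They were 8.95 and 7.96 for psb, 8.63 and 8.81 for pet, 8.07 and 6.77 for rps, 7.61 and 6.70 for ndh, and 7.45 and 6.59 for rpo. Only pet had the higher class median without DEX. Over single genes the mean over 6 arrays ran between 1.61 for ndhF and 13.50 for clpP, so the ranges of the classes overlapped.

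No plastid gene passed the test between +DEX and −DEX. In limma's fit over all probe sets, 0 of the 69 had an adjusted p under 0.05 (smallest adjusted p, 0.74), where 0.119% of all probe sets did. Most plastid genes nevertheless had a higher mean with DEX: 56 of 69 (81.2%) had a positive difference, with a median of 0.69 on the log2 scale, against 46.1% and a median of −0.10 over all tested probe sets. At an unadjusted p under 0.05, 6 of the 69 (8.70%; ndhF, ndhG, psbA, psbD, rps15 and ycf4) were higher and 0 were lower, where 2.49% of all probe sets were higher and 4.1% lower. Without −DEX replicate 1 the positive share was 45 of 69 (65.2%) and the median 0.30, against 46.0% and −0.10 over all probe sets. In that fit 2 genes were higher and 2 lower at an unadjusted p under 0.05 (2.90% each), against 2.34% and 3.46% of all probe sets. Of the 6 genes higher at that p with all arrays, 5 were under background on 1 or more arrays, where a log2 value is not a measured level, and ndhF was under it on all 6. Among the 44 plastid genes above background on all 6 arrays, 33 (75.0%) had a positive difference, with a median of 0.41. Without −DEX replicate 1 the count was 27 (61.4%), with a median of 0.18. Over the 7606 probe sets above background on all 6 arrays the share was 45.6% and the median −0.08. Those values were 42.2% and −0.12 without −DEX replicate 1. Only psbA of those 44 (2.27%) was higher at an unadjusted p under 0.05 and 0 were lower, where 1.96% and 5.32% of the 7606 probe sets above background were. The other 25 plastid genes had a median of 1.18, with 23 positive.

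All 69 probe sets were of the type whose name marks no shared sequence with other genes.

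**Figure D1:**
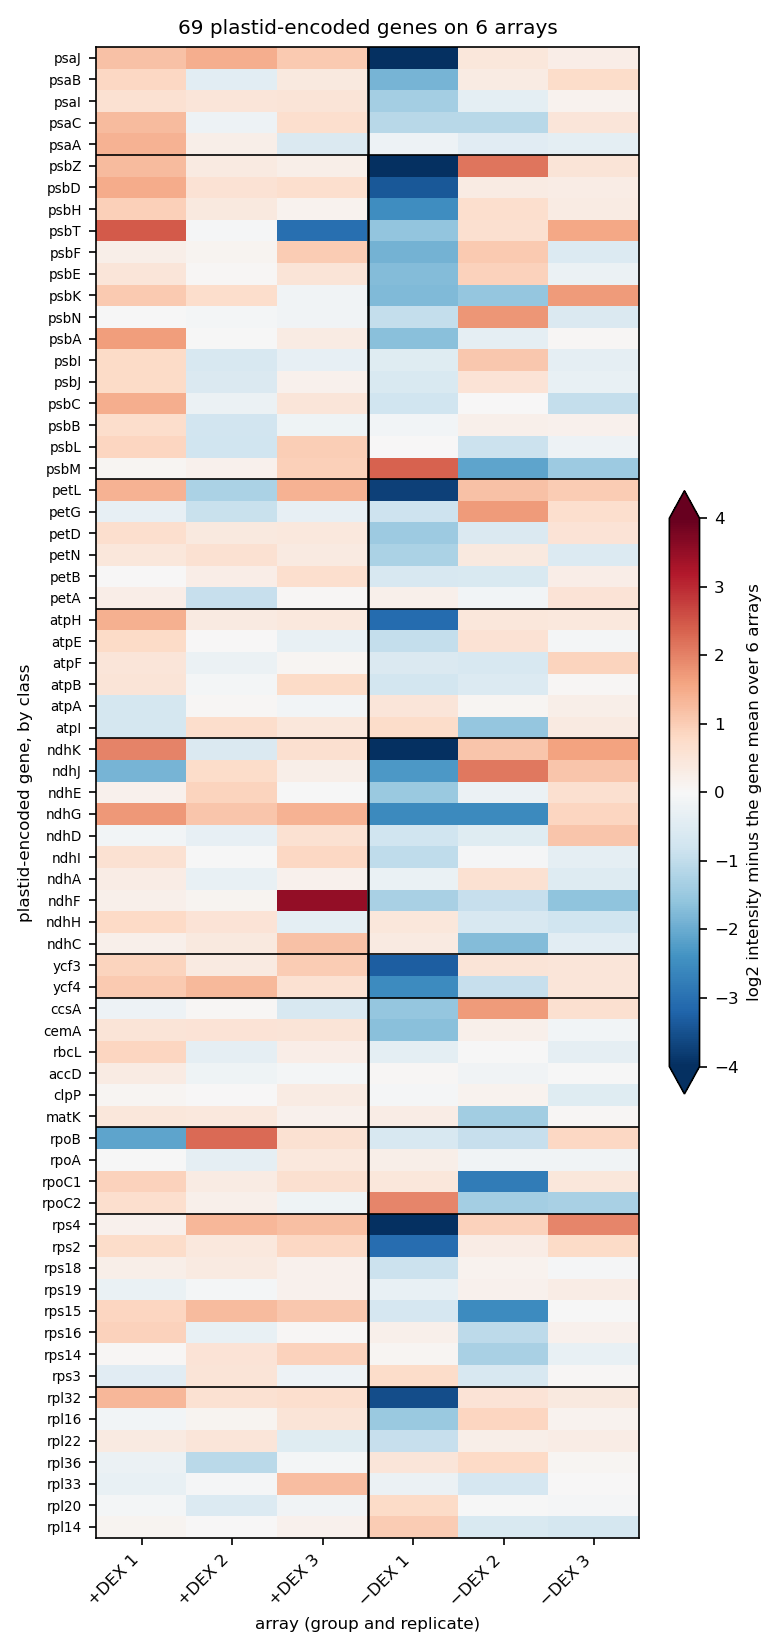
Heat map of the 69 plastid genes (down, grouped by class in the order psa, psb, pet, atp, ndh, ycf, other, rpo, rps and rpl) on 6 arrays (across, +DEX left of −DEX). Colour gives the log2 intensity minus the gene's mean over the 6 arrays, cut at 4 in either direction. The column of −DEX replicate 1 is the lowest for 37 of the 69 genes.

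Plastid values were low on the array of −DEX replicate 1. It held the lowest of the 6 values for 37 of the 69 genes (53.6%), against 20.6% of all probe sets and 26.8% of the 7606 above background everywhere. Set against the mean of −DEX replicates 2 and 3, it was lower by more than 1 on the log2 scale for 32 of 69 plastid genes (46.4%; 26.7% of all probe sets), and higher by more than 1 for 8 (11.6%; 30.9% of all probe sets). The median of this shift was −0.82 for plastid genes and 0.16 for all probe sets. Of 19 plastid genes lower by more than 2, 12 (63.2%) were not above background on that array, so the sizes of their shifts were not measured. Among the 44 genes above background everywhere, the median shift was −0.82 (−0.04 over the 7606 probe sets), 19 (43.2%; 22.3% of the 7606) were lower by more than 1, 7 (15.9%; 6.81%) by more than 2, and 26 (59.1%) had their lowest value there. The same comparison within groups gave plastid medians of 0.22, −0.34 and 0.0046 for +DEX replicates 1, 2 and 3 and of 0.36 and 0.57 for −DEX replicates 2 and 3. That array also had the highest ratio of 3′ to 5′ ubiquitin signal, 11.1. The next highest, 8.90, was that of +DEX replicate 1. The part of this ratio in the plastid values was not tested. The array of +DEX replicate 1 lay at the other end, with the highest value for 24 of the 69 (34.8%; 16.8% of all probe sets).

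The shift on that array differed in size between the classes. Its median was −3.06 for the 2 ycf genes, −1.53 for psb, −1.31 for pet, −1.23 for psa, −0.97 for ndh and −0.59 for atp. It was 1.0 for the 4 rpo genes, 0.05 for rps, 0.06 for rpl and −0.03 for the genes of no class. The rpo genes other than rpoA were under background on −DEX replicate 2, so the 1.0 was not a measured size. Of the 42 genes of the psa, psb, pet, atp and ndh classes 25 had their lowest value there, and of the 19 rpo, rps and rpl genes 7 did. Over the genes above background on all 6 arrays the median shifts were −1.17 for 10 psb genes, −1.18 for 5 pet, −1.02 for 4 psa, −0.97 for 4 ndh, −0.69 for 5 atp, −0.52 for 3 rps and 0.07 for 6 rpl genes. For the 5 such genes of no class the median was −0.19. The only such rpo gene, rpoA, had 0.38, and the only such ycf gene, ycf3, had −3.81. These class values are descriptions of 1 array, with no test of a difference between classes.

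**Figure D2:**
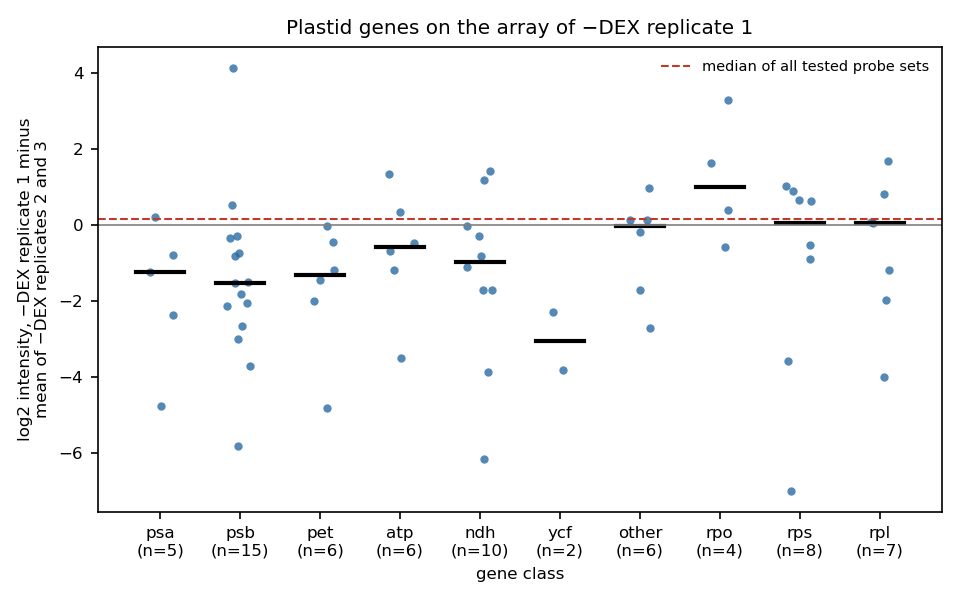
Shift of each plastid gene on the array of −DEX replicate 1 (down, log2 intensity minus the mean of −DEX replicates 2 and 3) by class (across, with the number of genes). Points are genes, black bars class medians and the dashed line the median of all tested probe sets (0.16). The bars of psa, psb, pet, atp, ndh and ycf lie below 0 and that of rpo at 1.0. The rpo genes other than rpoA were under background on −DEX replicate 2.

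Photosystem II splits water and is built around the D1 and D2 proteins, which psbA and psbD encode. Of its 15 measured genes 11 had a positive difference, with a class median of 0.79 (without −DEX replicate 1 the median was near 0 and 7 of 15 were positive). The log2 intensity of psbA (locus tag ArthCp002) was 12.94, 11.24 and 11.60 with DEX and 9.60, 10.91 and 11.31 without. The groups overlapped, with +DEX replicate 1 the highest and −DEX replicate 1 the lowest. Its difference was 1.32 ± 0.56 (SE; limma unadjusted p = 0.033, adjusted p = 0.75), and 0.82 ± 0.49 without −DEX replicate 1 (unadjusted p = 0.12).

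For psbD (ArthCp017) the values were 11.01, 10.11 and 10.19 with DEX and 6.13, 9.85 and 9.83 without. The groups did not overlap, but −DEX replicate 1 alone lay far below the rest and under background, while the other 5 arrays spanned 9.83 to 11.01. The difference of 1.83 ± 0.85 (limma unadjusted p = 0.049) became 0.60 ± 0.48 without that array (unadjusted p = 0.23). The gene psbC, for the antenna protein CP43, is transcribed together with psbD, and the reading frames overlap. It had 11.99, 10.27 and 11.02 with DEX and 9.72, 10.54 and 9.58 without, with no comparable drop on −DEX replicate 1. Its difference was 1.15 ± 0.54, and 1.03 without that array.

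The antenna protein CP47 is the product of psbB, which had a difference of −0.16 ± 0.47, with 11.86, 10.39 and 11.01 with DEX on either side of 11.05, 11.38 and 11.33 without. Cytochrome b559, which binds its haem between 2 small subunits, comes from psbE and psbF. Those genes had differences of 0.69 ± 0.70 and 0.93 ± 0.62, of which −0.0013 and 0.21 were left without −DEX replicate 1. The brightest probe set of the class, psbF, read 11.72, 11.60 and 12.51 with DEX and 9.58, 12.53 and 10.93 without. The widest spread of the class was that of psbZ, at 7.06, 6.14 and 6.02 with DEX and 1.28, 7.93 and 6.30 without, so that its difference of 1.24 turned to −0.70 without that array. Its value of 1.28 is far under background, and with values under a log2 of 5 raised to 5 the difference was 0.000395. A gene with the opposite behaviour was psbM, above background on −DEX replicate 1 (6.75) and on no other array.

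Photosystem I passes electrons on to ferredoxin, and all 5 measured psa genes had a positive difference (median 1.07, and 0.76 with 4 of 5 positive without −DEX replicate 1). Its reaction centre proteins are encoded by psaA and psaB. The gene psaA had 9.59, 8.42 and 7.61 with DEX and 7.98, 7.74 and 7.81 without, and psaB had 11.59, 10.33 and 11.15 with DEX and 8.91, 11.07 and 11.49 without. Both pairs of groups overlapped, and only psaB was low on −DEX replicate 1, where its difference of 0.53 ± 0.63 became −0.25 once that array was left out. The small subunit gene psaI had 10.75, 10.60 and 10.63 with DEX against 8.78, 9.75 and 10.27 without. All 3 +DEX values were above all 3 −DEX values, and the difference was 1.07 ± 0.53 (limma unadjusted p = 0.062), or 0.65 ± 0.44 without −DEX replicate 1. The gene psaJ, at 7.42, 7.72 and 7.31 with DEX and 1.85, 6.72 and 6.53 without, also had no overlap. Its value of 1.85 lies under background, so the size of the difference of 2.45 was not measured; it was 1.40 with the floor at a log2 of 5 and 0.86 without that array.

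The assembly of photosystem I needs the products of ycf3 and ycf4. The values of ycf3 were 12.84, 12.31 and 12.97 with DEX and 8.63, 12.46 and 12.43 without, so 5 arrays lay within 12.31 to 12.97 and −DEX replicate 1 lay below them. The difference was 1.53 ± 0.78 with all arrays and 0.26 ± 0.37 without that one. For ycf4 (ArthCp033) the values were 9.81, 10.08 and 9.37 with DEX and 6.25, 7.84 and 9.26 without. There was no overlap, −DEX replicate 1 lay just under background, and the difference of 1.97 ± 0.76 (3.91-fold; limma unadjusted p = 0.021, adjusted p = 0.75) became 1.2 ± 0.58 without −DEX replicate 1 (unadjusted p = 0.058).

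**Figure D3:**
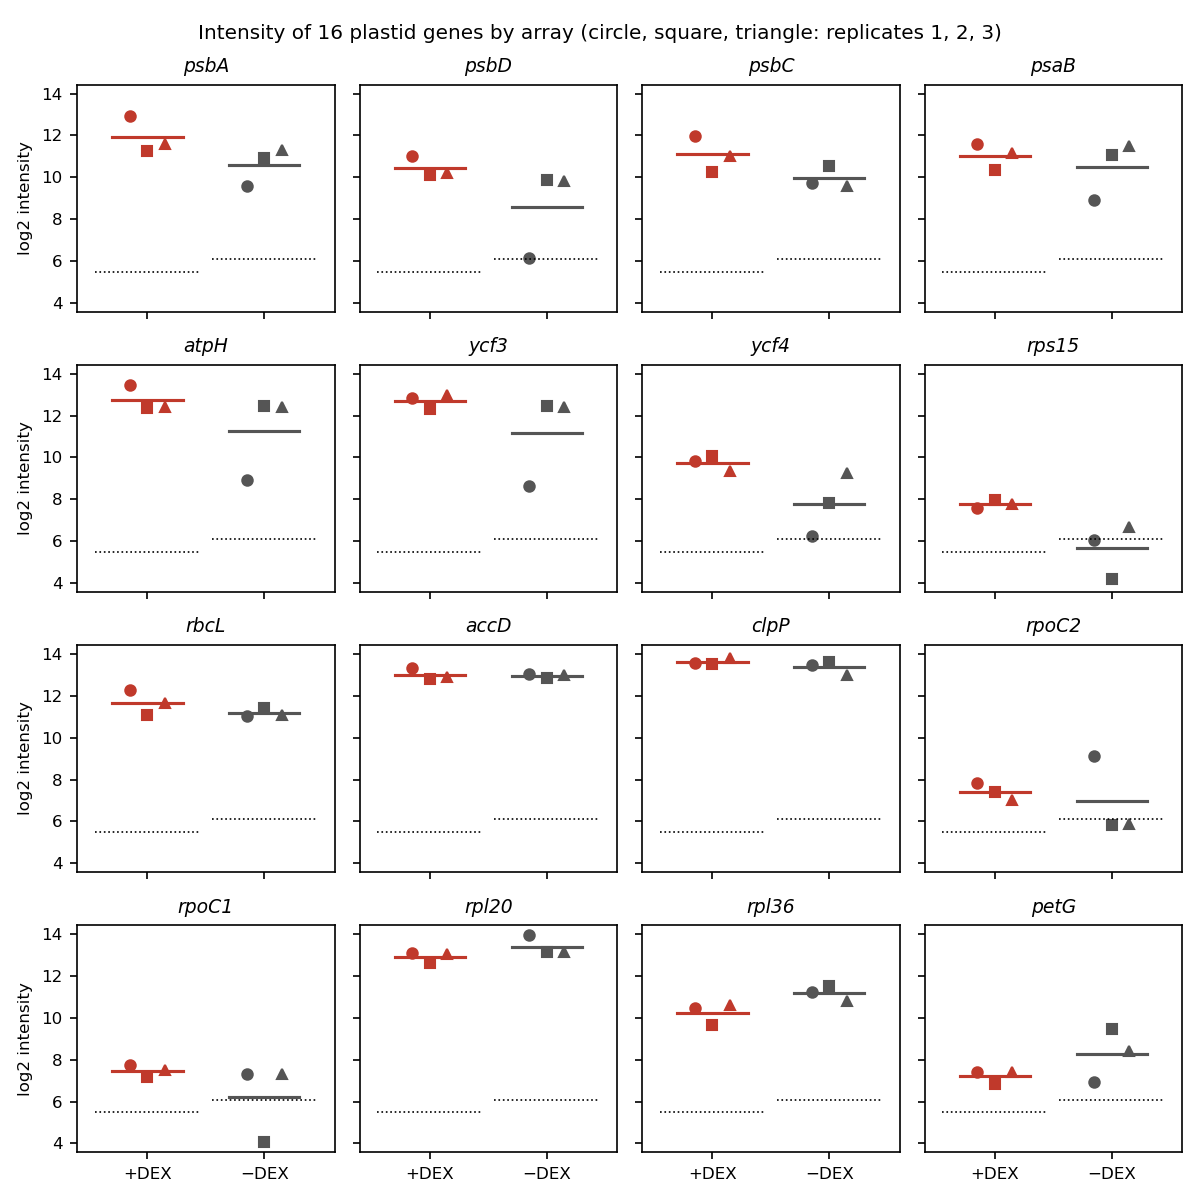
Log2 intensity (down) of 16 plastid genes on each array, +DEX in red and −DEX in grey; circles, squares and triangles are replicates 1, 2 and 3, bars the group means and dotted lines the mean background of each group. The grey circle of psbD, atpH and ycf3 lies well below the other 5 points, while accD and clpP keep all 6 points within a narrow band.

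The cytochrome b6f complex links the photosystems. Of its 6 measured genes 4 had a positive difference (median 0.80, and 0.03 with 3 of 6 positive without −DEX replicate 1). The gene petB, for cytochrome b6, had 10.93, 11.18 and 11.57 with DEX and 10.28, 10.29 and 11.16 without (0.65 ± 0.46). The neighbouring petD, for subunit IV, had 10.58, 10.29 and 10.34 with DEX and 8.46, 9.33 and 10.47 without (0.99 ± 0.58). In both the groups overlapped through −DEX replicate 3. The small subunit gene petG was lower with DEX, at 7.41, 6.85 and 7.43 against 6.93, 9.46 and 8.43, and −DEX replicate 2 was its highest array. Its difference was −1.04 ± 0.82, and −1.71 ± 0.71 without −DEX replicate 1 (limma unadjusted p = 0.030, adjusted p = 0.85), but −0.44 without −DEX replicate 2. The gene petL had the widest spread of the class, with a value under background on −DEX replicate 1 (2.22) and on +DEX replicate 2 (4.69). Its difference of 1.01 became 0.19 with the floor and −0.60 without −DEX replicate 1.

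The ATP synthase of the thylakoid is encoded in part by 6 measured atp genes, of which 5 had a positive difference (median 0.30, and 0.15 without −DEX replicate 1). The gene atpH, for the subunit of the rotating ring, had the brightest probe set and the widest spread of the class. It read 13.44, 12.36 and 12.41 with DEX and 8.93, 12.46 and 12.42 without, so that a single −DEX array set its difference of 1.47 ± 0.74, which was 0.30 ± 0.41 without it. The genes atpA and atpB gave differences smaller in size than that of atpH. For atpA, the alpha subunit, the values were 9.83, 10.59 and 10.42 with DEX and 11.02, 10.62 and 10.77 without. All its +DEX values lay below all its −DEX values, by a narrow margin, and the difference was −0.52 ± 0.46 (limma unadjusted p = 0.28). For atpB, the beta subunit, the difference was 0.80 ± 0.51, with overlap.

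The NDH complex takes part in cyclic electron flow. Of its 10 measured genes 9 had a positive difference (median 0.83, and 0.41 with 7 of 10 positive without −DEX replicate 1). The largest difference of all plastid genes was that of ndhG (ArthCp077), at 8.58, 7.94 and 8.22 with DEX and 4.29, 4.29 and 7.71 without. The groups did not overlap, and 2 −DEX arrays lay under background. The difference was 2.81 ± 1.05 (limma unadjusted p = 0.018, adjusted p = 0.74), and 2.25 ± 0.98 without −DEX replicate 1 (unadjusted p = 0.038). With the floor at a log2 of 5 it was 2.34. For ndhI the values did not overlap either, at 8.68, 8.04 and 8.90 with DEX and 7.04, 8.03 and 7.70 without (0.95 ± 0.70). The brightest probe set of the class was that of ndhE, with 9.80, 10.51 and 9.61 with DEX and 8.13, 9.40 and 10.27 without. The gene ndhK showed the widest spread, set by a value of 1.66, under background, on −DEX replicate 1. Its difference of 1.38 became 0.27 with the floor and −0.68 without that array. For ndhF, with means of 2.89 with and 0.34 without DEX, all 6 arrays were under background, so its values without overlap are values of background.

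The plastid gene for the large subunit of Rubisco, rbcL (ArthCp030), had 12.29, 11.06 and 11.68 with DEX and 11.05, 11.42 and 11.07 without. The groups overlapped, with +DEX replicate 1 the highest. The difference was 0.50 ± 0.44, and between 0.19, without +DEX replicate 1, and 0.80, without +DEX replicate 2, when single arrays were left out. The genes accD, for a subunit of acetyl-CoA carboxylase in fatty acid synthesis, and clpP, for the proteolytic subunit of the Clp protease, serve plastids of all tissues. They had the 2 smallest spreads between arrays of the 69 genes. The gene accD (ArthCp031) read 13.32, 12.82 and 12.90 with DEX and 13.05, 12.86 and 12.98 without, a difference of 0.05 ± 0.33. The gene clpP read 13.56, 13.52 and 13.81 with DEX and 13.45, 13.63 and 13.00 without, a difference of 0.27 ± 0.32. On −DEX replicate 1 they were 0.13 above the mean of the other −DEX arrays in both cases.

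Among the other genes of no class, cemA, for a protein of the plastid envelope, had 10.45, 10.46 and 10.43 with DEX and 8.26, 10.14 and 9.82 without. The groups did not overlap, and the difference of 1.04 ± 0.58 became 0.47 ± 0.44 without −DEX replicate 1. The gene ccsA acts in cytochrome c assembly. It had 7.82, 8.08 and 7.37 with DEX and 6.48, 9.71 and 8.68 without, so that −DEX held both the lowest and the highest array, and its difference of −0.53 ± 0.85 became −1.44 ± 0.65 without −DEX replicate 1 (limma unadjusted p = 0.044) and 0.18 without −DEX replicate 2. The intron maturase gene matK differed by 0.69 ± 0.88, with −DEX replicate 2, under background, its lowest array (0.17 without it).

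Of the genes for the plastid's own gene expression machinery, some were far lower on −DEX replicate 1 and others not. The 4 rpo genes encode the core of the plastid RNA polymerase, and all 4 had a positive difference (median 0.49). That median was 0.93 without −DEX replicate 1 and 0.065 without −DEX replicate 2, and only rpoA was above background on all 6 arrays. The gene rpoC2 had 7.85, 7.39 and 7.02 with DEX and 9.15, 5.82 and 5.90 without, so −DEX replicate 1 was its highest array, and its difference of 0.46 ± 1.0 became 1.56 ± 0.91 without it and −0.10 without −DEX replicate 2. The gene rpoC1 had 7.76, 7.19 and 7.49 with DEX and 7.32, 4.07 and 7.32 without, with −DEX replicate 2 the low one, under background. Its difference of 1.25 ± 1.03 was 0.16 without that array. The gene rpoB had 3.53, 7.92 and 6.26 with DEX and 5.0, 4.71 and 6.47 without, and was above background on 2 of 3 +DEX and 1 of 3 −DEX arrays. The gene rpoA, at 9.75, 9.42 and 10.18 with DEX and 10.01, 9.63 and 9.62 without, differed by 0.03 ± 0.52.

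Of the 8 genes for the small ribosomal subunit 6 had a positive difference (median 0.76, and 0.23 without −DEX replicate 1). The gene rps15 (ArthCp081) had 7.60, 7.99 and 7.79 with DEX and 6.07, 4.2 and 6.70 without, with no overlap and 2 −DEX arrays under background. Its difference was 2.14 ± 0.97 (limma unadjusted p = 0.044, adjusted p = 0.75) and 2.34 ± 0.99 without −DEX replicate 1 (unadjusted p = 0.032), but 1.41 without −DEX replicate 2, its lowest array. The gene rps18 also had no overlap, at 8.47, 8.58 and 8.40 with DEX and 7.37, 8.36 and 8.19 without (0.51 ± 0.67). The widest spread of all 69 genes was that of rps4, at 7.62, 8.78 and 8.64 with DEX and 1.88, 8.36 and 9.40 without, and it rests on the value of 1.88, far under background. The difference of 1.80 ± 1.48 was 0.76 with the floor at a log2 of 5 and −0.53 without −DEX replicate 1. The gene rps19, the brightest of the class, differed by −0.12 ± 0.51.

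Of the 7 genes for the large ribosomal subunit 5 had a positive difference (median 0.25, and −0.14 with 3 of 7 positive without −DEX replicate 1). The gene rpl20 read 13.10, 12.62 and 13.03 with DEX and 13.94, 13.15 and 13.13 without, and rpl36 read 10.48, 9.65 and 10.63 with DEX and 11.21, 11.52 and 10.79 without. In both every +DEX value lay below every −DEX value. Their differences were −0.49 ± 0.35 and −0.92 ± 0.48 (limma unadjusted p = 0.19 and 0.073). The opposite case was rpl32, at 8.79, 8.05 and 8.13 with DEX and 3.92, 8.0 and 7.85 without, whose difference of 1.73 ± 1.04 rests on the value of 3.92, under background, and became 0.40 ± 0.65 without −DEX replicate 1.

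The remaining plastid genes had differences between −0.60 and 1.33. Among them psaC, for the iron-sulphur subunit of photosystem I, had 11.66, 10.19 and 11.05 with DEX and 9.27, 9.28 and 10.88 without. Its groups overlapped through −DEX replicate 3, and the difference was 1.15 ± 0.58 (0.88 without −DEX replicate 1). In photosystem II the remaining small subunits and assembly proteins ranged between −0.42 for psbT, at background, and 1.07 for psbK, with psbH at 1.0 (−0.0020 without −DEX replicate 1), psbL at 0.69, psbJ at 0.25, psbI at −0.15 and psbN at −0.15. In the cytochrome complex petN had 0.95 and petA, for cytochrome f, −0.42, and among the atp genes atpE had 0.31, atpI 0.30 and atpF 0.23. The NDH genes ndhC, ndhH, ndhD and ndhA had 1.18, 0.63, 0.13 and 0.10, and ndhJ, above background on 1 of 3 arrays in each group, had −0.60. The ribosomal genes rps2, rps14, rps16 and rps3 had 1.33, 1.01, 0.44 and −0.086, and rpl33, rpl16, rpl22 and rpl14 had 0.60, 0.33, 0.25 and 0.19. The fit gave none of these an unadjusted p under 0.05.

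In all, every +DEX array lay above every −DEX array for 11 of the 69 genes (15.9%; 4.99% of all probe sets) and below for 3 (4.35%; 7.55% of all probe sets). By definition the lowest array of these 11 genes is 1 of the 3 −DEX arrays. In 8 of the 11 it was −DEX replicate 1, and the exceptions were ndhF, ndhG and rps15. The same share over all such probe sets was not computed. Under background on 1 or more arrays were 7 of the 11, and ndhF on all. Among the 44 genes above background on all 6 arrays, 4 (9.09%; psaI, cemA, rps18 and ndhI) lay above and 3 (6.82%) below, against 5.19% and 8.28% of the 7606 probe sets above background. Of 56 genes with a positive difference 12 were negative once −DEX replicate 1 was left out, and of 13 with a negative difference 1 became positive. That left 45 of the 69 positive, against 52 to 57 with any other single array left out. Over all probe sets 46.1% were positive with all arrays and 46.0% without −DEX replicate 1. Differences above 1 numbered 23 with all arrays and 12 without it, and differences below −1 numbered 1 and 4. Sign changes and differences past 1 were not counted over all probe sets.

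**Figure D4:**
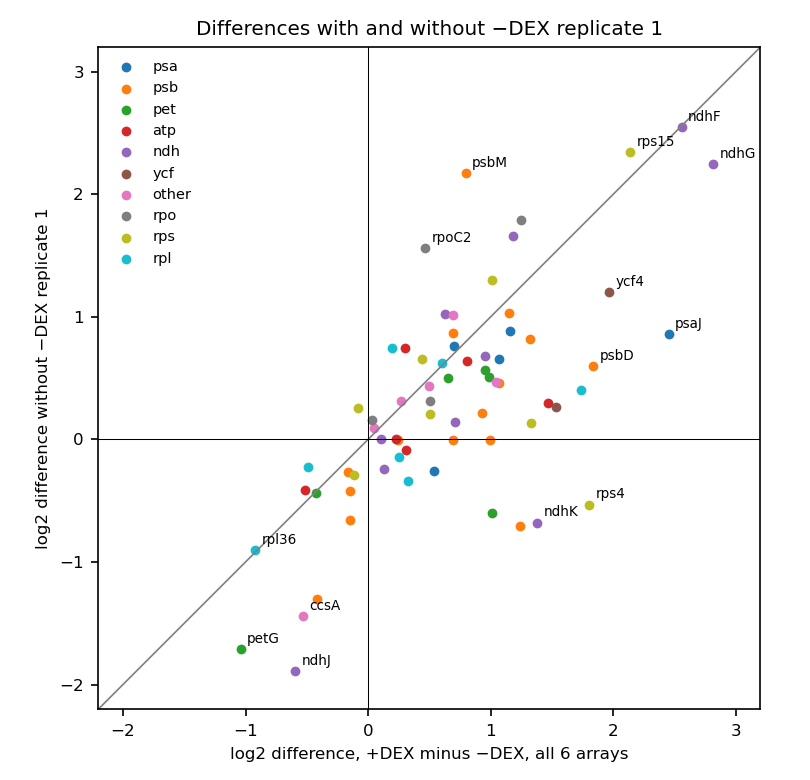
Log2 difference of each plastid gene, +DEX minus −DEX, with all 6 arrays (across) and without −DEX replicate 1 (down), coloured by class; the grey line marks equal values. Points below the line lose height when that array is left out. The genes ndhF, ndhG and rps15 lie above 2 on both axes, but ndhF was under background on all 6 arrays. Each of ndhG and rps15 was under it on 2 −DEX arrays, and rps15 had 1.41 without −DEX replicate 2.

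Genes read in one transcription unit differed in their shift on −DEX replicate 1. The 13 units listed from general knowledge hold 51 of the 69 genes, and in 10 of the 13 the shift on that array spanned more than 2 on the log2 scale between members. Counting only genes above background on all 6 arrays, 10 units had 2 or more members, and in 4 of these the shift spanned more than 2. The same span was not computed for plastid genes of different units or on other arrays. Over all 69 plastid genes, 27.5% were lower by more than 2 on that array, and larger units can span more through their size. The spans are therefore descriptions, with no test of a trait of the units. In the unit of rps2, atpI, atpH, atpF and atpA, the shifts were −3.58, 1.34, −3.51, −0.69 and 0.33 in that order. In the unit of psaA, psaB and rps14, they were 0.20, −2.37 and 0.88. In the unit of psbD, psbC and psbZ the shifts were −3.71, −0.34 and −5.83. In the rpoB unit, they were −0.59 for rpoB, 1.62 for rpoC1 and 3.29 for rpoC2. Of these genes rps2, psbD, psbZ and rpoB were under background on −DEX replicate 1, and atpI, rps14, rpoB, rpoC1 and rpoC2 on −DEX replicate 2, so the sizes of their shifts were not measured. The unit of ndhD, psaC, ndhE, ndhG, ndhI, ndhA, ndhH and rps15 had 8 of 8 differences above 0 with DEX, against 81.2% of the 69 plastid genes. They lay between 0.10 and 2.81, and between −0.24 and 2.34 without −DEX replicate 1. The upper ends are those of ndhG and rps15, both under background on −DEX replicates 1 and 2. On −DEX replicate 2 ndhH was under it too.

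A split by promoter type was made from general knowledge. The 8 genes listed for the plastid-encoded polymerase (psbA, psbB, psbC, psbD, psbE, psaA, psaB and rbcL) had a median difference of 0.69, and 0.51 without −DEX replicate 1. The 4 listed for the nucleus-encoded polymerase (rpoB, rpoC1, rpoC2 and accD) had 0.49, and 0.93 without it. On that array the median shift was −0.93 for the genes of the plastid-encoded polymerase and 0.88 for those of the nucleus-encoded polymerase, and −DEX replicate 1 was the lowest array for 5 of the 8 and 0 of the 4. In the second list rpoB, rpoC1 and rpoC2 were under background on −DEX replicate 2, and rpoB also on −DEX replicate 1. The sizes of their shifts were therefore not measured, and the 0.88 and 0.93 rest on such values. The gene accD, above background on all 6 arrays, had a shift of 0.13. In the first list psbD was under background on −DEX replicate 1. Both lists are short, so these are values and not a comparison.

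Among genes above background, plastid genes varied between arrays about as much as other genes. The median SD within groups was 0.80 for the 69 plastid genes and 1.19 for all probe sets, and 0.66 for the 44 plastid genes above background on all arrays and 0.66 for all probe sets above it. By class it was 1.36 for rpo, 1.33 for ycf, 1.04 for psb, 0.84 for psa, 0.83 for ndh, 0.65 for pet, 0.66 for atp, 0.63 for rps and rpl and 0.55 for the genes of no class. Among single genes it ranged between 0.20 for accD and 2.92 for rps4, whose spread rests on a value under background. Within the +DEX group the median SD over the 69 genes was 0.48 (n = 3), and within the −DEX group it was 0.94 (n = 3), or 0.49 over −DEX replicates 2 and 3 alone (n = 2). All probe sets had 0.85, 1.14 and 0.77 in the same order.

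**Figure D5:**
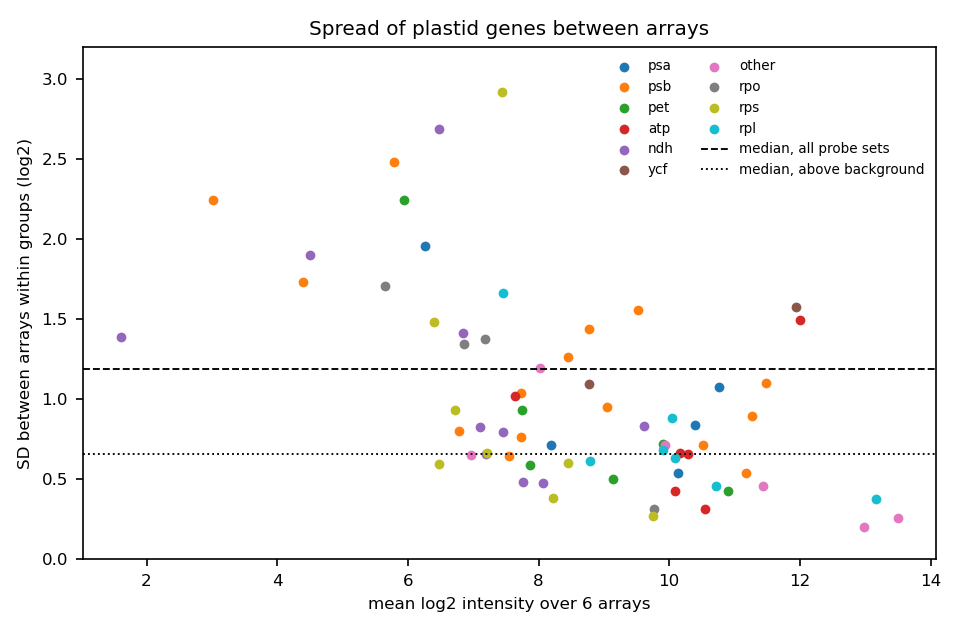
SD between arrays within groups (down, log2) against the mean log2 intensity over 6 arrays (across) for the 69 plastid genes, coloured by class, with the median SD of all tested probe sets (dashed, 1.19) and of those above background on all arrays (dotted, 0.66). The genes accD and clpP lie at the lower right, and rps4, with 1 array under background, at the top.

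Nuclear genes that serve plastid transcription could hardly be followed. The annotation named 0 of 6 sigma factors, 0 of 12 polymerase-associated proteins, 0 of 9 proteins of plastid RNA decay and RNA binding, 0 mitochondrial genes and 1 of 3 phage-type polymerases. That one, AT5G15700, whose product is known to act in both mitochondria and plastids, had 7.08, 6.10 and 7.25 with DEX and 3.32, 5.14 and 6.52 without. It was above background on all 3 +DEX and on 1 of 3 −DEX arrays. The groups overlapped (1.82 ± 1.15; limma adjusted p = 0.79). Of 17 nuclear photosynthesis genes taken as markers of green tissue 2 were measured. LHCB4.1, an antenna protein, had 7.74, 9.46 and 10.18 with DEX and 10.21, 7.85 and 8.59 without. Its highest values, on −DEX replicate 1 and +DEX replicate 3, were nearly equal. RCA, Rubisco activase, was above background on 2 of 3 +DEX and 1 of 3 −DEX arrays. Of 8 root markers 2 were measured, EXPA7 and AT1G62500, and both were below background on every array. With so few markers the part of green or root cell types in the plastid values was not tested.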

How the data were processed

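RNA of 6 samples of sorted root protoplasts, 3 with and 3 without DEX, was extracted with TRIzol, biotin-labelled and hybridised to ATH1 arrays, per the labels' protocols. The deposited table holds linear intensities, which the authors had already scaled: with 2% of values trimmed at each end, all arrays had a mean of 500.0, while medians ran from 66.3 to 92.9. The summary method behind those values is not stated in the labels.

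After division by the array median and multiplication by 1 shared value, intensities under 1 were set to 1 and converted to log2. The 64 controls among 22810 probe sets did not enter the fit. Differences are +DEX minus −DEX from limma (version 3.58.1, R 4.3.3), with the group as the only term, eBayes with a variance trend, a two-sided test and Benjamini-Hochberg adjustment over 22746 probe sets. Errors are SE of that fit. The number of arrays limits the precision: the median SE was 0.74 over the 69 plastid genes and 1.13 over all probe sets.

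Names came from the array annotation, matched by gene ID to the TAIR10.1 gene table: 13436 probe sets had 1 gene in it, 503 had several, 8730 were not listed and 77 did not match. The table served for names and genome of origin only. Another 8 probe sets named several copies of plastid genes in the inverted repeat and stayed out. The rule for named genes took 16 fixed genes (14 measured), the brightest, smallest-p and widest-spread gene of each class, genes without overlap, and the 3 largest differences each way above background. The rest are named as examples chosen after their values were seen. Members, classes and lists were chosen with earlier results of these data known.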

Additional observations from a re-analysis of the deposited data

How the results depend on the processing

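Across the settings run, 0 plastid genes passed the test (0 also at an adjusted p under 0.1), and the plastid median difference stayed positive, at 0.88 as deposited, 0.66 after quantile normalization, 0.53 with a floor at a log2 of 5, 0.41 over the 44 genes above background, and 0.30 to 0.77 with single arrays left out. The median of all probe sets was 0.09 as deposited and 0.0081 after quantile normalization. Plastid genes higher at an unadjusted p under 0.05 numbered 10 after quantile normalization, 11 as deposited, 3 without the variance trend, 2 with the floor, 1 among the 44 genes above background, and 1 to 12 with single arrays left out, the 1 without +DEX replicate 1 and the 12 without −DEX replicate 3. Lower genes numbered 1 with the floor, and 0 to 2 with arrays left out. Probe sets past the threshold numbered 27, but 0 without the trend, 0 with the floor and 0 to 46 with arrays left out.

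By class, the ndh median was 0.45 with the floor and 0.42 above background, and the rps median −0.086 above background. With single arrays left out the medians ranged from 0.41 to 1.11 for ndh, 0.034 to 0.93 for pet, −0.14 to 0.47 for rpl and 0.23 to 0.88 for rps, each lowest without −DEX replicate 1, and from 0.065, without −DEX replicate 2, to 0.93 for rpo, and the median SD from 0.53 to 0.84. Among named genes psbB had 0.015 after quantile normalization and 0.028 as deposited, and rps19 0.077 as deposited. With arrays left out, differences ranged from −0.10 to 0.15 for accD, −1.44 to 0.18 for ccsA, −0.68 to 2.54 for ndhK, −0.60 to 1.89 for petL, −0.25 to 1.03 for psaB, −0.55 to 0.18 for psbB, −0.0013 to 1.32 for psbE, −0.70 to 2.62 for psbZ, −0.17 to 0.21 for rpoA, −0.50 to 1.70 for rpoB, −0.10 to 1.56 for rpoC2, −0.29 to 0.0036 for rps19 and −0.53 to 3.23 for rps4. The cause was not tested. Each member had 1 probe set, so averaging probe sets could not apply. Signal over background limits the 25 plastid genes that were under it on 1 or more arrays.

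With the replicate block, 0 plastid genes passed, 7 were higher at an unadjusted p under 0.05, and 33 probe sets passed. The correlation of deviations from the group means was 0.025, −0.0051 and 0.014 for same-numbered arrays, and for the others −0.036 to 0.025. The arrays of +DEX replicates 1 and 3 correlated best with their own number, and that of +DEX replicate 2 did not. Correlations this near 0 cannot decide whether same-numbered samples shared a preparation, which the labels do not state.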

Other observations

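The 8 probe sets that name several copies of a plastid gene in the inverted repeat lie outside the comparison. Of these, 7 were above background on all 6 arrays, against 44 of the 69 single-copy genes. Their median log2 difference, +DEX minus −DEX, was 0.27 (0.21 without −DEX replicate 1), with 6 positive and 2 negative. On −DEX replicate 1 their median shift from the mean of the other −DEX arrays was −0.44, and that array was the lowest for 3 of the 8. Their median SD within groups was 0.43.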
